A study of Arabidopsis thaliana with 9 samples.

Results

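Xylem and secondary wall genes, 8 in all, are described here in the apical hook of dark-grown Arabidopsis thaliana seedlings, in 2 mutants and the wild type. They were chosen by gene identifier from a list of 10 genes that serve as markers of xylem vessels and of the thickened wall. Of the 10, 8 stood in the deposited table of 16383 genes: CESA7 (AT5G17420), CESA8 (AT4G18780), COBL4 (AT5G15630), FLA11 (AT5G03170), FLA12 (AT5G60490), LAC4 (AT2G38080), XCP1 (AT4G35350) and XCP2 (AT1G20850). CESA4 and VND7 were not analysed here. The hook is the bent upper end of the stem of a seedling that has not seen light.

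The groups were the mutant tmk1-1, called tmk1 here, the double mutant iaa32iaa34, and Col-0, called WT here, with 3 libraries each. All seedlings were 45 h old and had grown in darkness at 22 °C. A sample was a pool of some 50 hook pieces, about 2 mm long and freed of cotyledons, and the labels call the samples biological triplicates. TMK1 encodes a transmembrane kinase of auxin signalling. IAA32 and IAA34 encode noncanonical Aux/IAA proteins, which repress auxin-responsive transcription. The comparisons ask which transcripts differ in hooks that lack the kinase or the repressors.

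Xylem vessels carry water, and they form when a cell lays down a secondary wall inside its primary wall and then dies and empties itself. The secondary wall is built of cellulose, xylan and lignin. CESA4, CESA7 and CESA8 together form the cellulose synthase of that wall, and mutants in them have collapsed vessels. COBL4 is a membrane-anchored protein needed for ordered cellulose in secondary walls, FLA11 and FLA12 are fasciclin-like arabinogalactan proteins of thickened walls, and LAC4 is a laccase that polymerises lignin. XCP1 and XCP2 are cysteine proteases that digest the contents of the dying vessel cell, and VND7 is the NAC transcription factor that sets off vessel formation.

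The values are CPM, read counts scaled to a common library total. Library totals were 10077093 to 13601488 reads, and each gene of the table was above 1 CPM in at least 3 libraries. TMK1 stood at 33.7 ± 10.1 CPM in tmk1 hooks, 485 ± 26 in iaa32iaa34 hooks and 441 ± 47.0 in WT hooks (SD, n = 3). IAA32 stood at 25.4 ± 3.1 CPM in tmk1, 8.46 ± 2.01 in iaa32iaa34 and 49.8 ± 6.21 in WT. Each targeted gene that was measured was thus low in the libraries labelled as its mutant, and IAA34 was not analysed here. Some libraries stood apart from the others of their genotype. The 15 photosynthesis genes listed as cotyledon markers summed to 9069 CPM in iaa32iaa34 replicate 2, against 22384 and 19576 CPM in replicates 1 and 3 of that genotype. The 9 endodermis markers summed to 204 CPM in iaa32iaa34 replicate 1, against 490 and 511 CPM in replicates 2 and 3. Results of iaa32iaa34 are therefore also given without either library. Libraries of the other genotypes differed as well. The endodermis markers summed to 154, 291 and 628 CPM in replicates 1 to 3 of WT, and to 163, 338 and 268 CPM in those of tmk1. The photosynthesis genes summed to 11313, 9501 and 5284 CPM in WT. The alternative settings leave out each library in turn.

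All 8 genes were expressed in the hook, at very different levels. Levels of different genes are compared here as CPM per kilobase of exon, with exon lengths from the TAIR10.1 annotation, and as means over the 9 libraries. The proteases were highest, XCP2 at 64.8 and XCP1 at 40.6 CPM per kilobase. FLA11 followed at 22.5 and LAC4 at 12.5 CPM per kilobase. The lowest were CESA7 at 6.22, FLA12 at 4.92, CESA8 at 4.84 and COBL4 at 3.5 CPM per kilobase. The first 5 genes kept this order in the means of each genotype. CESA8 and FLA12 did not. FLA12 was above CESA8 in tmk1, at 5.26 ± 0.551 against 4.40 ± 0.700 CPM per kilobase, and in iaa32iaa34, at 5.74 ± 1.48 against 4.34 ± 0.853, and below it in WT, at 3.76 ± 1.53 against 5.77 ± 0.789 (SD, n = 3). In WT hooks the SD ranges of FLA12 and COBL4 overlapped, as did those of CESA7 and CESA8 and those of CESA8 and FLA12, so these neighbours did not differ beyond their spread. XCP2, XCP1, FLA11 and LAC4 were each separated from the next gene by more than the SDs.

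The cellulose synthase genes of the secondary wall were far below those of the primary wall, which growing cells make. CESA7 was at 5.79 ± 0.936 CPM per kilobase in tmk1, 6.29 ± 1.69 in iaa32iaa34 and 6.60 ± 0.384 in WT, and CESA8 at 4.40 ± 0.700, 4.34 ± 0.853 and 5.77 ± 0.789 in tmk1, iaa32iaa34 and WT (SD, n = 3). CESA1, CESA3 and CESA6, the usual subunits of the primary wall enzyme, stood at 195 ± 12.1, 223 ± 12.9 and 155 ± 8.29 CPM per kilobase in tmk1. They stood at 182 ± 26.9, 210 ± 19.6 and 147 ± 10.6 in iaa32iaa34, and at 219 ± 21.7, 254 ± 9.34 and 175 ± 15.4 in WT. Both genes of the secondary wall were thus low in all 3 genotypes beside these subunits. COBL4 was at 3.53 ± 0.769 CPM per kilobase in WT, against 127 ± 7.61 for COB, its primary wall relative.

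**Figure D1:**
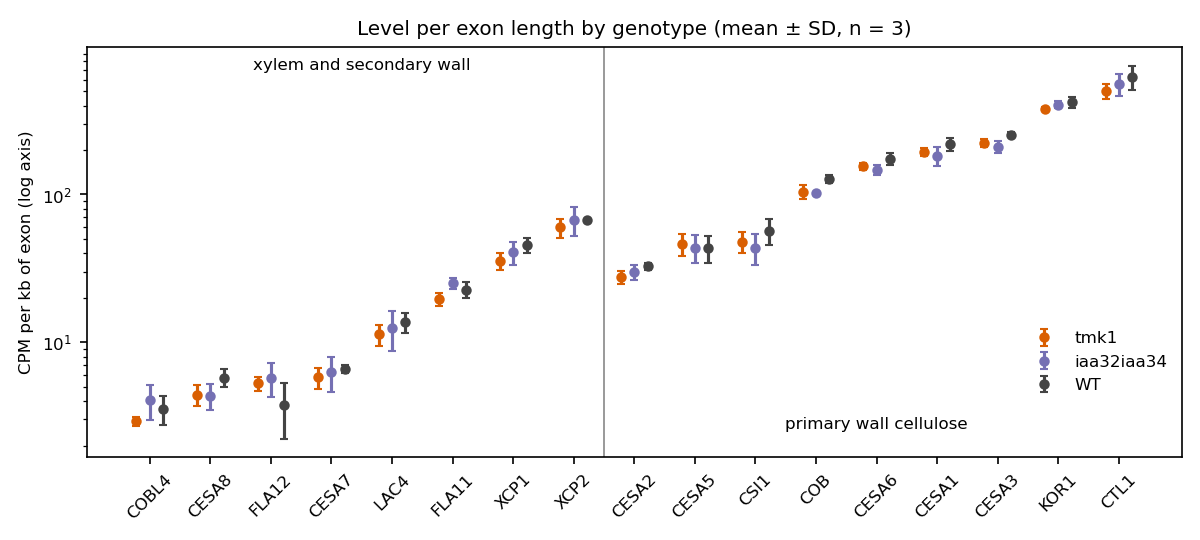
Level of the xylem and secondary wall genes and of genes of primary wall cellulose in the hook, as CPM per kilobase of exon on a log axis, by genotype (mean and SD of 3 libraries). XCP2 and XCP1 lead the xylem genes at 64.8 and 40.6 CPM per kilobase over 9 libraries, and CESA7 and CESA8 lie well under CESA1, CESA3 and CESA6.

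In tmk1 hooks 7 of the 8 genes were lower than in WT and 1, FLA12, was higher, and none of these differences passed the test. The estimated changes were modest, from -0.37 for CESA8 to 0.47 for FLA12 on the log2(CPM + 1) scale, on which fold changes of low genes are understated. The test was limma over all 9 libraries, with p-values adjusted over 16383 genes. By it, 0.317% of all genes passed at 0.05, 52 in number, and 0 of the 8 genes did. None of the 8 was under an unadjusted p of 0.05 in limma, against 3505 of all genes, which is 21.4%. A fit with replicate as a block passed 323 genes and still 0 of the 8. CESA7, XCP1 and FLA11 overlap a gene on the other strand that is also in the table, so a share of their reads may be uncertain. In a bulk sample, fewer xylem cells and less RNA per xylem cell cannot be told apart.

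Of the genes of wall cellulose, CESA8 was at 16.6, 12.1 and 15.5 CPM in tmk1 hooks and at 19.8, 21.7 and 16.5 CPM in WT hooks. The groups met only at the edge, where the highest tmk1 library lay just above the lowest WT library. Its log2 fold change was -0.37 ± 0.18 (SE), with a 95% interval of -0.78 to 0.04 (limma, adjusted p = 0.272). CESA7 was at 19.2, 16.8 and 23.1 CPM in tmk1 and 21.0, 23.5 and 22.8 CPM in WT, so that replicate 3 of tmk1 lay within the WT range. Its log2 fold change was -0.19 ± 0.19 (SE; limma, adjusted p = 0.595). COBL4, at 5.56, 6.35 and 6.32 CPM in tmk1 and 6.46, 6.42 and 9.22 CPM in WT, was the 1 gene of the 8 whose groups did not overlap, lower in tmk1. Of all 16383 genes, 18.9% had groups that did not overlap with tmk1 lower, and 1891 more had tmk1 higher throughout. The gap between the COBL4 groups was narrow, and its log2 fold change was -0.23 ± 0.21 (SE; limma, adjusted p = 0.565).

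The proteases of the dying vessel cell were also lower in tmk1 in the mean. XCP1 was at 47.5, 45.7 and 58.0 CPM in tmk1 and 55.8, 68.8 and 67.8 CPM in WT. Replicates 1 and 2 of tmk1 were below every WT library, and replicate 3 lay above the lowest of WT. The log2 fold change was -0.34 ± 0.17 (SE), with a 95% interval of -0.72 to 0.03 (limma, adjusted p = 0.266). XCP2 was at 73.9, 77.3 and 96.2 CPM in tmk1 and 93.2, 93.7 and 91.6 CPM in WT. Its WT libraries differed by less than read counting alone would give, with a coefficient of variation of 1.21% against 3.04% from counting. The tmk1 libraries lay on both sides of them, and the log2 fold change was -0.18 ± 0.18 (SE; limma, adjusted p = 0.597).

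LAC4, the lignin laccase, was at 21.3, 24.7 and 29.6 CPM in tmk1 and 29.1, 36.1 and 26.7 CPM in WT, with overlapping groups. Its log2 fold change was -0.27 ± 0.22 (SE; limma, adjusted p = 0.512). The fasciclin-like pair went opposite ways. FLA11 was at 17.2, 16.5 and 19.9 CPM in tmk1 and 20.7, 17.9 and 23.0 CPM in WT, a log2 fold change of -0.19 ± 0.15 (SE; limma, adjusted p = 0.475). FLA12 was at 6.43, 7.94 and 7.28 CPM in tmk1 and 4.46, 3.49 and 7.51 CPM in WT. The highest FLA12 values of WT and of tmk1 were close, and the other WT libraries lay below all of tmk1. Its log2 fold change was 0.47 ± 0.25 (SE), with a 95% interval of -0.10 to 1.03 (limma, adjusted p = 0.314), and it rested on 43 to 88 reads per WT library. The 95% intervals of the other 7 genes lay within -1 and 1, so a change of more than 2-fold either way on this scale fell outside them.

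Over the 8 genes the median log2 fold change in tmk1 was -0.21, beside -0.06 over all genes, of which 58.1% were lower. In the CPM as deposited, the 8 genes thus leaned the way most genes did, by somewhat more. With median-of-ratios scaling the median was -0.15 over the 8 and -0.004 over all genes. With TMM scaling it was -0.16 over the 8 and -0.016 over all genes, so the lean of all genes depended on the scaling. This count of 1 higher and 7 lower held in each of the 17 alternative settings, with medians from -0.30 to -0.15. The lean was not particular to these genes. Of 9 genes of primary wall cellulose, 8 were lower in tmk1, with a median of -0.19. In iaa32iaa34 8 of the 9 were lower than in WT as well, with a median of -0.24. By limma 0 of the 9 passed in either mutant.

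**Figure D2:**
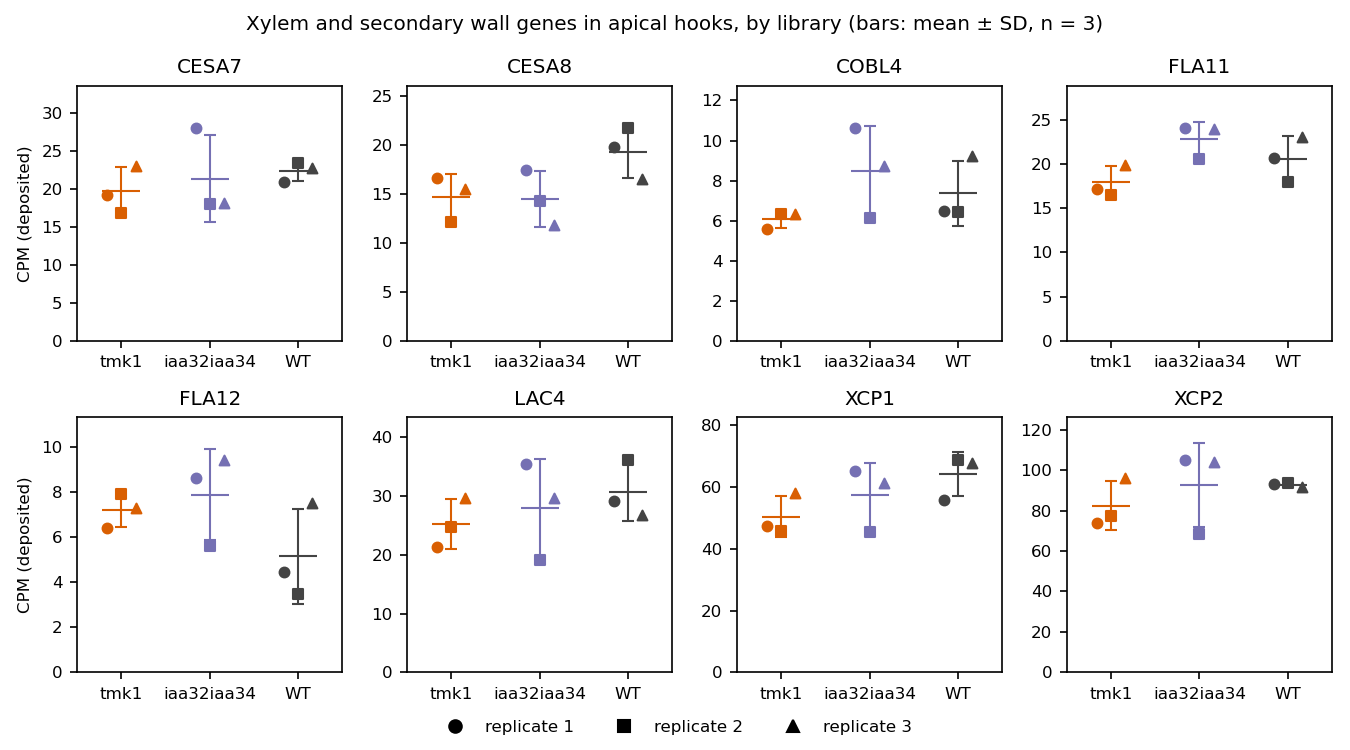
CPM of each of the 8 genes in each library, by genotype, with the mean and SD of 3 libraries. CESA8 and XCP1 show tmk1 mostly below WT, FLA12 shows mutants mostly above WT, and the libraries of the genotypes overlap in most panels.

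In iaa32iaa34 hooks the genes split, 3 higher and 5 lower than in WT, and again none passed. CESA8 had the most negative log2 fold change and FLA12 the most positive, as in tmk1. The WT libraries are shared by both comparisons. By limma, 25 of all genes passed, which is 0.153%, and 0 of the 8 did. None of the 8 was under an unadjusted p of 0.05 in limma, against 16.6% of all genes. Of all genes, 58.2% were lower in iaa32iaa34 than in WT.

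CESA8 was at 17.5, 14.3 and 11.8 CPM in iaa32iaa34 and 19.8, 21.7 and 16.5 CPM in WT. Only replicate 1 of the mutant reached the WT range. The log2 fold change was -0.40 ± 0.18 (SE), with a 95% interval of -0.80 to 0.01 (limma, adjusted p = 0.316). FLA12 was at 8.62, 5.59 and 9.43 CPM in iaa32iaa34 and 4.46, 3.49 and 7.51 CPM in WT. Replicates 1 and 3 of the mutant lay above every WT library. The FLA12 log2 fold change was 0.55 ± 0.25 (SE), with a 95% interval of -0.01 to 1.12 (limma, adjusted p = 0.308). The other 6 genes had log2 fold changes between -0.17 for XCP1 and 0.17 for COBL4 (limma, adjusted p = 0.629 to 0.948). No gene of the 8 had separate groups in either direction. Of all 16383 genes, 14.6% had separate groups with the mutant lower throughout, and 1072 more had the mutant higher throughout.

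The iaa32iaa34 libraries themselves were scattered. Replicate 1 was the highest of its genotype for 7 of the 8 genes, against 29.3% of all genes, and replicate 2 was the lowest for 7 of the 8, against 22.4% of all genes. XCP2, for example, was at 105, 68.5 and 104 CPM in the 3 libraries, and LAC4 was at 35.4, 19.1 and 29.6 CPM. CESA7 was at 28.0, 18 and 18.2 CPM, high in replicate 1 alone. Replicate 2 is the library with the low photosynthesis genes. Without it the median log2 fold change of the 8 genes against WT was 0.13, with 6 higher and 2 lower, against -0.06 with it. XCP2 was then at 0.17, CESA7 at 0.01 and LAC4 at 0.09 in log2 fold change. CESA8 was at -0.39 and FLA12 at 0.76 (limma, adjusted p = 0.309 and 0.13). The part of the photosynthesis level in this difference was not tested. Without that library 645 genes passed in limma, and still 0 of the 8 did. Without iaa32iaa34 replicate 1, the library with the low endodermis markers, the median was -0.20, with 3 higher and 5 lower, 5 of all genes passed in limma and 0 of the 8 did. The part of the endodermis level was not tested.

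**Figure D3:**
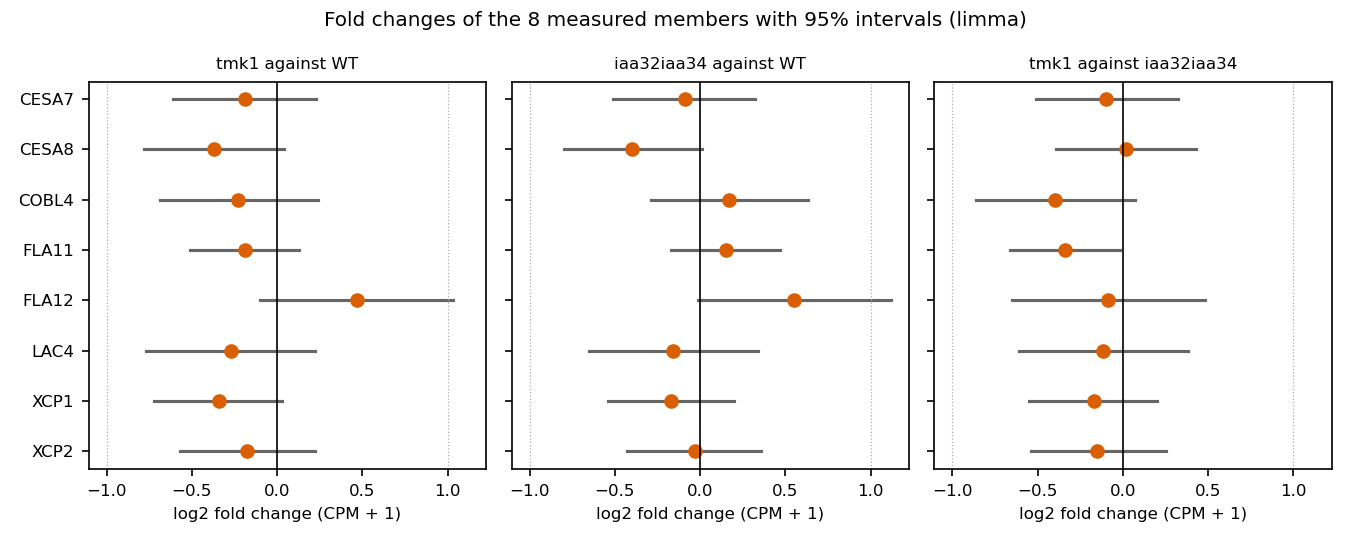
Log2 fold change of each of the 8 genes in the 3 comparisons, with its 95% interval from limma, on the log2(CPM + 1) scale. All intervals but that of FLA11 between the mutants reach across 0, and FLA12 is the 1 gene whose intervals extend beyond 1.

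Between the mutants, 7 of the 8 genes were lower in tmk1 than in iaa32iaa34 and none passed, where 0.0549% of all genes, 9 in number, did. FLA11 was the exception in separation, at 17.2, 16.5 and 19.9 CPM in tmk1 and 24.0, 20.6 and 23.9 CPM in iaa32iaa34. All tmk1 libraries lay below all iaa32iaa34 libraries, and such a gap with tmk1 lower was found in 6.16% of all genes. The FLA11 log2 fold change was -0.34 ± 0.15 (SE), with an unadjusted p of 0.0412 and adjusted p = 0.605 in limma, so it did not pass. COBL4 came next at -0.40 ± 0.21 (SE; limma, adjusted p = 0.655), with overlapping groups. The median over the 8 genes was -0.13, beside 0.01 over all genes, of which 47.9% were lower. FLA11 was the 1 gene of the 8 under an unadjusted p of 0.05, against 8.12% of all genes. Without iaa32iaa34 replicate 2 the median was -0.34, with FLA11 at -0.41 and COBL4 at -0.59 (limma, adjusted p = 0.636 and 0.583). Without iaa32iaa34 replicate 1 it was -0.03, with 3 higher and 5 lower. CESA8, which was lower than WT in both mutants, was at 0.02 between them (SE 0.18; limma, adjusted p = 0.977). Its 95% interval ran from -0.39 to 0.43.

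Ratios within a library set partners of 1 structure side by side, as CPM per kilobase of each gene. CESA8 to CESA7 was 0.765 ± 0.101 in tmk1, 0.701 ± 0.092 in iaa32iaa34 and 0.877 ± 0.123 in WT (SD, n = 3). XCP1 to XCP2 was 0.598 ± 0.0266 in tmk1, 0.61 ± 0.0362 in iaa32iaa34 and 0.674 ± 0.078 in WT. Both ratios had overlapping libraries across genotypes. FLA12 to FLA11 was 0.248, 0.319 and 0.242 in tmk1, 0.237, 0.18 and 0.261 in iaa32iaa34, and 0.142, 0.129 and 0.216 in WT. Every tmk1 library was above every WT library in this last ratio, and iaa32iaa34 replicate 2 lay within WT. With 3 libraries against 3 the smallest exact permutation p is 0.1, so that test cannot pass 0.05, no other was run on the ratios, and these are descriptions.

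**Figure D4:**
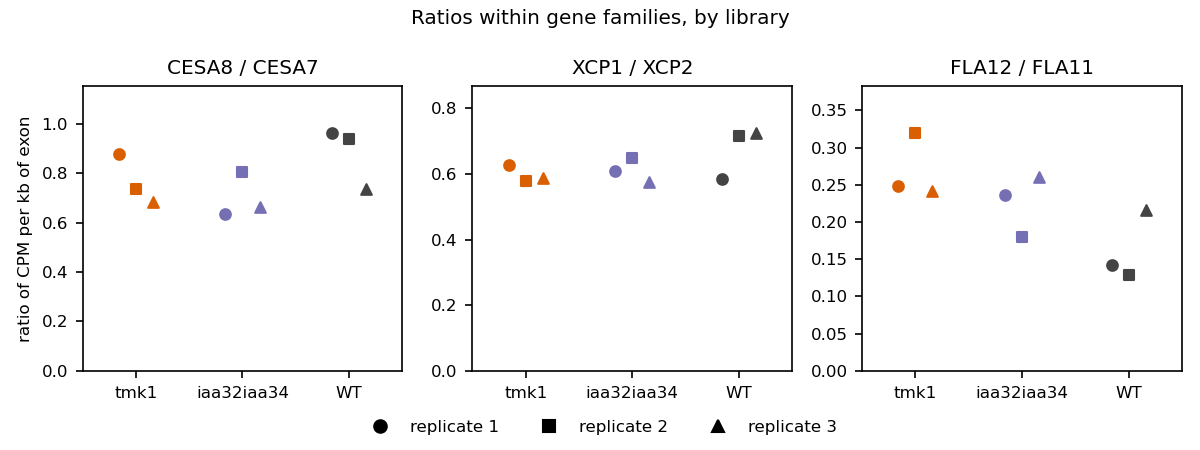
Ratio of CPM per kilobase of CESA8 to CESA7, XCP1 to XCP2 and FLA12 to FLA11, 1 point per library, by genotype. For FLA12 to FLA11 the tmk1 libraries sit between 0.242 and 0.319, all above the WT libraries at 0.129 to 0.216.

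Within genotypes the genes also differed in scatter. On the log2 scale the SD within genotypes ran from 0.15 for FLA11 to 0.35 for FLA12, where 500 genes of like level had median SDs of 0.20 to 0.27. LAC4 was the other scattered gene, with an SD of 0.31 that exceeded that of 81.4% of its like genes. Across the 9 libraries 6 of the genes moved together. The Pearson correlation of log2(CPM + 1) with the mean of the other 7 was 0.88 for XCP2, 0.84 for XCP1, 0.80 for COBL4, 0.74 for CESA7, 0.72 for LAC4 and 0.66 for FLA11. It was 0.08 for CESA8 and 0.02 for FLA12, so these, the genes with the widest differences from WT, did not follow the rest over the 9 libraries. With genotype means removed the correlation was 0.05 for CESA8 and 0.41 for FLA12. These values are descriptions over libraries that share genotypes and depth.

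The transcripts most like the mean of the 8 were taken by correlation over the same 9 libraries among 14660 genes with a mean of at least 3 CPM. PGSIP1 (AT3G18660), also called GUX1, which adds glucuronic acid to xylan, was among the first 6 with r = 0.90 and a mean of 5.27 CPM. The other 5 were AT4G11200, AT2G28315, AT5G47710, AT5G02090 and AT1G05870, with r from 0.86 to 0.93. The annotation used here gave no symbol for them. These 6 are the highest of 14660 correlations over only 9 libraries, a ranking in which high values can also arise by chance. No p was computed, and the values are descriptions.

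Genes of the wider wall program were taken from lists. The xylan list holds genes of xylan synthesis, of which 15 were measured. Xylan is the main hemicellulose of secondary walls in this species, and the list was not split by type of wall. All 15 were lower in tmk1 than in WT, and the median log2 fold change was -0.34. By limma 0 passed (adjusted p = 0.0628 to 0.87), and 2 were under an unadjusted p of 0.05, where 21.4% of all genes were. Over alternative settings the median ran from -0.43 to -0.24. A filter on low values left 11 of the genes, all lower, and 13 of 15 were lower without tmk1 replicate 1 and 14 without WT replicate 3. In 5 of the 15 the tmk1 libraries lay below all WT libraries, against 18.9% of all genes. In iaa32iaa34 13 of the 15 were lower than in WT, where 58.2% of all genes were, and 0 passed by limma. The median there was -0.16 and ran from -0.23 to -0.08 over settings. The summed CPM of the list was 199 to 219 in tmk1, 221 to 249 in iaa32iaa34 and 254 to 302 in WT. In the CPM as deposited these sums did not overlap, but the gap between iaa32iaa34 and WT was narrow. TMM scaling factors were 0.9382 for iaa32iaa34 replicate 3 and 1.055 for WT replicate 1, so the separation of iaa32iaa34 from WT depended on the scaling. IRX9L, IRX14 and IRX10L weighed most in the sums of the list, with means of 56.4, 50.2 and 47.8 CPM over the 9 libraries. IRX9, IRX10 and GAUT12 were far lower, with means of 4.76, 8.91 and 2.78 CPM. The sums thus mostly follow a few genes and cannot be read for the secondary wall alone.

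PARVUS (AT1G19300), a glycosyltransferase-family protein required for the start of xylan chains, had the smallest p. It was at 17.2, 18.9 and 16.5 CPM in tmk1, 18.8, 24.0 and 18.8 CPM in iaa32iaa34 and 31.1, 27.5 and 31.9 CPM in WT. Every mutant library lay below every WT library. Its log2 fold change in tmk1 was -0.75 ± 0.14 (SE), with adjusted p = 0.0628 in limma and 0.0454 with the replicate number as a block. It passed in 4 of 18 settings, with adjusted p in limma from 0.0221 to 0.242 over them. In iaa32iaa34 the log2 fold change was -0.54 ± 0.14 (SE; limma, adjusted p = 0.154, or 0.0383 without replicate 2 of that genotype). That was the 1 setting of 18 in which PARVUS passed there, with adjusted p in limma up to 0.426 over them. IRX9L, which takes part in building the xylan backbone, was at 50.6 ± 7.33 CPM in tmk1 and 62.5 ± 5.48 CPM in WT (SD, n = 3). IRX10L, a xylan synthase gene, was at 41.8 ± 2.8 CPM in tmk1 and 53.6 ± 6.32 CPM in WT. IRX14, at 48.3 ± 6.76 CPM in tmk1 and 56.7 ± 7.25 CPM in WT, had overlapping groups.

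Genes of vessel maturation and death other than the proteases above were lower in 9 of 10 cases in tmk1, with a median of -0.32. By limma 0 passed, and 3 of the 10 were under an unadjusted p of 0.05, against 21.4% of all genes. TED7, needed for secondary wall formation in tracheary elements, was at 6.62 ± 1.49 CPM in tmk1 and 9.98 ± 1.93 CPM in WT (SD, n = 3), a log2 fold change of -0.53 ± 0.19 (SE; limma, adjusted p = 0.157). RNS3, a ribonuclease, was at 4.46 ± 0.979 CPM in tmk1 and 7.36 ± 1.54 CPM in WT (limma, adjusted p = 0.217). The metacaspase MC9 was at 5.89 ± 1.47 CPM in tmk1 and 10.4 ± 3.27 CPM in WT, with overlapping groups (limma, adjusted p = 0.174). ACL5 and XSP1, the 2 highest genes of the list, had smaller log2 fold changes of -0.09 and -0.23 in tmk1 (limma, adjusted p = 0.841 and 0.387). In 4 of the 10 genes the groups did not overlap, with tmk1 lower, against 18.9% of all genes. In iaa32iaa34 the list had 6 of 10 lower with a median of -0.06, and the median ranged over settings from -0.13 to 0.10.

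Among the regulators of the program, VNI2, a NAC protein that restrains VND7, was highest at a mean of 67 CPM over the 9 libraries, and MYB43 followed at 16.4 CPM. VND2 to VND6, relatives of VND7, were low, with means of 1.52 to 3.68 CPM. MYB46, the switch of the secondary wall program, was at 2.68 ± 0.815 CPM in tmk1 and 2.84 ± 1.2 CPM in WT (SD, n = 3). MYB83, its partner, was at 1.09 ± 0.254 CPM in tmk1 and 1.72 ± 0.334 CPM in WT. Of 17 measured regulators 10 were lower in tmk1, with a median of -0.16. By limma 0 passed, and 3 of the 17 were under an unadjusted p of 0.05, against 21.4% of all genes. LBD15 had the smallest p in that list, at 3.15 ± 1.41 CPM in tmk1 and 6.36 ± 1.6 CPM in WT (limma, adjusted p = 0.137).

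The lists of other cell types give the setting. Endodermis markers, which include the CASP genes of the Casparian strip, summed to 163 to 338 CPM in tmk1, 204 to 511 in iaa32iaa34 and 154 to 628 in WT, so the range within WT exceeded the differences between genotype means. No marker of these lists was at 0 in any library. CASP1 alone ran from 1.82 to 65.4 CPM across libraries. Photosynthesis genes summed to 17537 to 24324 CPM in tmk1, 9069 to 22384 in iaa32iaa34 and 5284 to 11313 in WT. All 15 were higher in both mutants in the mean, and by limma 0 passed, with 15 in tmk1 and 13 in iaa32iaa34 under an unadjusted p of 0.05, against 21.4% and 16.6% of all genes. LHCA2, a light-harvesting protein gene, had adjusted p = 0.0321 in limma for tmk1 with the replicate block and 0.0601 without it. Procambium genes, the precursors of xylem, summed to 329 to 365 CPM in tmk1 and 282 to 359 CPM in WT, with a median log2 fold change of 0.11 that turned to -0.06 without WT replicate 3. Epidermis genes summed to 2506 to 3529 CPM in tmk1 and 2535 to 3029 CPM in WT. Whether the makeup of the hook contributed to the lower xylem and xylan values was not tested.

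**Figure D5:**
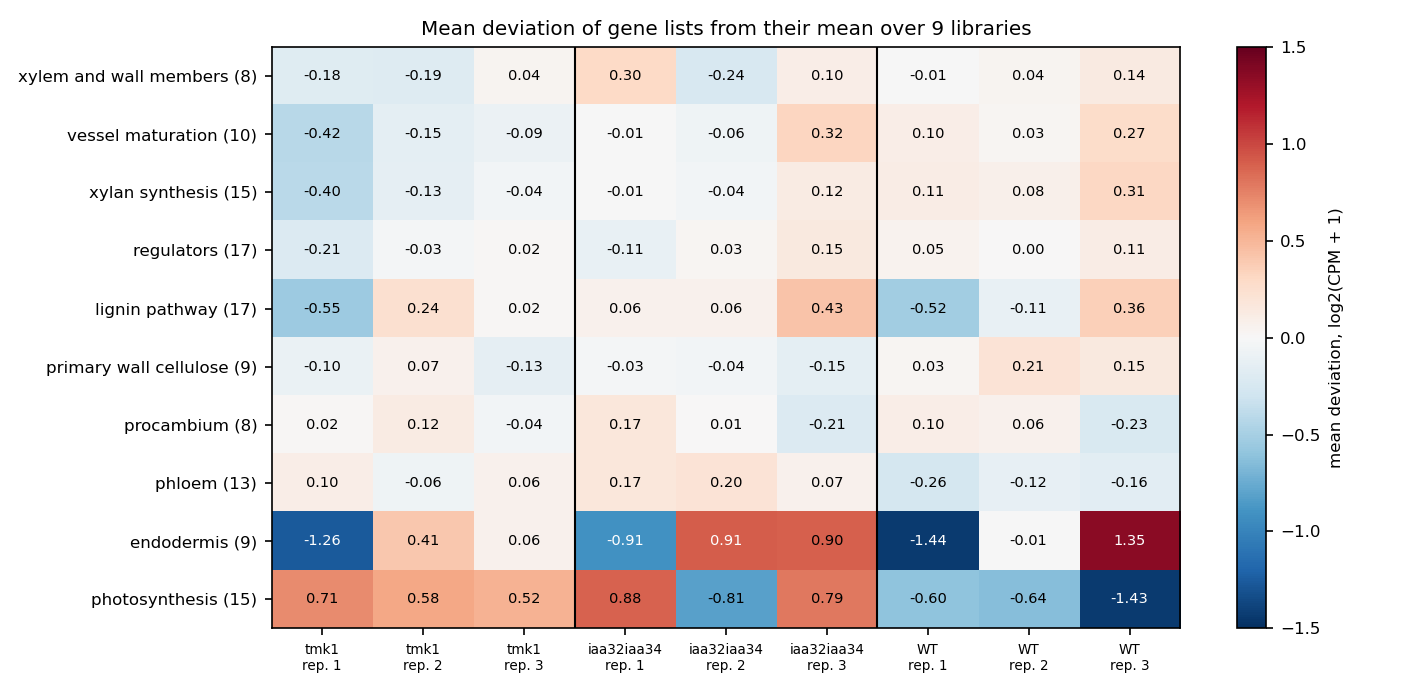
Mean deviation of each gene list from its mean over 9 libraries, on the log2(CPM + 1) scale, for each library. The xylem members, vessel maturation and xylan lists are lowest in tmk1 replicate 1 or iaa32iaa34 replicate 2, and the endodermis list ranges most, from -1.44 to 1.35.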

How the data were processed

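RNA-seq libraries of 3 genotypes with 3 libraries each were used, grouped and numbered from the labels. Per the labels' protocols, a strand-specific kit was used on 1 µg of total RNA per library. The authors deposited 1 table of CPM values for 16383 genes. The submitters' processing notes name HISAT and HTSeq, with no version. Genome build, annotation and strand setting: not given in the sources used here. CESA7, XCP1 and FLA11 overlap a gene on the opposite strand that is in the table, and CESA8 overlaps 2 such genes that are not, so without the strand setting their reads cannot be assigned with certainty.

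CPM values were taken as log2(CPM + 1) and fitted with limma 3.58.1 in R 4.3.3 (lmFit, eBayes with a mean-variance trend), all 9 libraries together. Tests were two-sided, adjusted by Benjamini-Hochberg over all genes at 0.05. Values were whole multiples of 1 step per library to within 0.01 read, which gave the library totals, and 88.6 to 90.6% of each total stood in the table. The coefficient of variation from counting covers counting error only. The limma p-values set the difference of genotype means against a within-genotype variance that is moderated across genes. TAIR10.1 gave names and exon lengths, and 16240 identifiers were found in it. No sequences or coordinates are printed, because the genome build of the table was not stated.

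Same-numbered libraries of tmk1 and WT all had r above 0.1 (r = 0.53, 0.13 and 0.14). Support for a pairing was weak, because tmk1 replicate 2 and WT replicate 3, with different numbers, had r = 0.3. The main tests therefore use no pairing, and results with a replicate block are given only as an alternative setting. In the other comparisons r was not above 0.1 for every same-numbered pair. The members and gene lists were chosen with earlier results of these data known. A rule was set for naming genes. It took all members, the gene of each list with the smallest p in a comparison, the 2 highest genes of each list, and the 6 most like the members. Not every gene that the rule picks is named here, and CESA1, CESA3 and CESA6 were named outside it. IRX10L, MC9, MYB46, the VND genes and CASP1 were named after their values were seen, as was RNS3 in tmk1. The model was checked on simulated counts with equal depth and the same dispersion for every gene. Those counts hold no deviations that many genes of a library share, so the check does not cover them.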

Additional observations from a re-analysis of the deposited data

Results flagged for a closer look

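The targeted genes differed between the mutants, by the test of the difference itself. TMK1 was at 33.7 ± 10.1 CPM in tmk1 hooks and 485 ± 26 CPM in iaa32iaa34 hooks (SD, n = 3), a log2 difference of -3.84 (limma, adjusted p = 1.87e-05), and all 3 tmk1 libraries were lower. IAA32 was at 25.4 ± 3.1 CPM in tmk1 and 8.46 ± 2.01 CPM in iaa32iaa34, a log2 difference of 1.5 (limma, adjusted p = 0.0192), and all 3 tmk1 libraries were higher. IAA32 passed in 12 of 18 settings, with adjusted p in limma from 0.0159 to 0.147. None of the 8 xylem and secondary wall genes differed between the mutants by this test.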

How the results depend on the processing

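None of the 8 genes passed in any of the 54 fits of a comparison, over 18 settings. Genes past the threshold in tmk1 against WT were 52, and 31 with median-of-ratios scaling, 29 with TMM scaling, 31 with a pseudocount of 0.25, 620 with only the 2 genotypes compared, 323 with the replicate block and 6 to 704 with 1 library left out. In iaa32iaa34 against WT they were 25, and 12 with only the 2 genotypes compared, 11 with the replicate block and 5 to 645 with 1 library left out. Between the mutants they were 9, and 3 with only the 2 genotypes compared, 10 with the replicate block and 3 to 8 with 1 library left out. With the block, calls were compared for the members, the targeted genes and the smallest-p genes of each list. Among these it moved the calls of PARVUS, LHCA2 and IAA32 in tmk1 (limma, adjusted p = 0.0454, 0.0321 and 0.046) and no other. In the other comparisons same-numbered libraries did not all deviate together (r from -0.40 to 0.46). With 1 library left out, the median of the 8 genes was -0.30 to -0.17 in tmk1 against WT, -0.20 to 0.13 in iaa32iaa34 against WT and -0.34 to -0.03 between the mutants. Signs turned in iaa32iaa34 against WT for XCP2 (0.04 with median-of-ratios and 0.03 with TMM scaling, and -0.13 to 0.17 with 1 library left out), and with 1 library left out for CESA7 (-0.30 to 0.01) and LAC4 (-0.34 to 0.09). Likewise they turned between the mutants for CESA7 (-0.21 to 0.11), CESA8 (-0.11 to 0.16), FLA12 (-0.29 to 0.04) and LAC4 (-0.36 to 0.07), and in tmk1 against WT for CASP5 (-1.20 to 0.03). The cause was not tested. The planned count models were not run, and the deposited CPM were tested as CPM. FLA12 and COBL4 have 43 to 112 reads per library, which limits what could be detected for them.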

Other observations

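Phloem is the sugar-conducting partner of xylem. All 13 measured phloem genes were higher in iaa32iaa34 than in WT, and the median log2 fold change was 0.30, with 0.23 to 0.39 over settings. In tmk1 10 of 13 were higher, with a median of 0.26 that ran from 0.14, without tmk1 replicate 1, to 0.32 over settings. By limma 0 passed in either mutant, with 2 in tmk1 and 4 in iaa32iaa34 under an unadjusted p of 0.05, against 21.4% and 16.6% of all genes. The difference from the xylem genes was not tested. The list summed to 312 to 424 CPM in tmk1, 378 to 416 CPM in iaa32iaa34 and 291 to 313 CPM in WT. SUC2, the sucrose transporter of companion cells, was at 110 ± 4.64 CPM in iaa32iaa34 and 75.7 ± 3.66 CPM in WT (SD, n = 3; limma, adjusted p = 0.2).

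The lignin list holds genes of monomer synthesis and laccases and a peroxidase that polymerise lignin. In iaa32iaa34 16 of 17 were higher than in WT, with a median of 0.31 that was 0.07 without WT replicate 1, with 10 higher, 0.12 without iaa32iaa34 replicate 3 and 0.20 without WT replicate 2. In tmk1 11 of 17 were lower, with a median of -0.05 that ran from -0.24 to 0.16 over settings. Its sign turned without tmk1 replicate 1, without WT replicate 3 and with median-of-ratios scaling. By limma 0 passed in either mutant, with 0 in tmk1 and 1 in iaa32iaa34 under an unadjusted p of 0.05, against 21.4% and 16.6% of all genes. OMT1, a methyltransferase of monomer synthesis, was at 170 ± 39.5 CPM in iaa32iaa34 and 112 ± 36.6 CPM in WT (SD, n = 3; limma, adjusted p = 0.296). The lignin and endodermis lists were both low in tmk1 replicate 1 and WT replicate 1 and high in WT replicate 3.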
